A study of Mus musculus with 4 samples.

Results

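The genes described here encode the proteins of the mitochondrial ribosome whose symbols begin with Mrpl or Mrps and a digit. The symbols were read from the GENCODE M21 annotation of the mouse genome (GRCm38), and protein-coding genes were kept without pseudogenes. They number 78 of the 54838 gene identifiers in the deposited count tables. By symbol, 49 belong to the large subunit (Mrpl) and 29 to the small subunit (Mrps). The genes lie on 17 chromosomes, with the most on chromosome 11 (11 genes), chromosome 17 (8 genes) and chromosome 6 (7 genes).

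The mitochondrial ribosome translates the few mRNAs of the mitochondrial genome, which encode membrane subunits of the respiratory chain and of ATP synthase. Its rRNAs come from the mitochondrial genome, whereas its proteins are encoded in the nucleus, made in the cytosol and imported. Many of these proteins descend from bacterial ribosomal proteins and others were gained in mitochondria. The small subunit binds the mRNA and reads its codons, and the large subunit joins the amino acids and passes the new protein towards the inner membrane.

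RNA was sequenced from mouse embryonic stem cells of the line E14Tg2a.4 (strain 129/Ola) and from a derived knock-in line. In the knock-in line, MLC460, CRISPR/Cas9 was used to join monomeric enhanced green fluorescent protein to the N-terminus of endogenous p300, a histone acetyltransferase and transcriptional coactivator encoded by Ep300. The wild-type line carries no tag. All cells were grown on gelatin in medium with serum and leukemia inhibitory factor, the labels name no feeder cells, and the RNA libraries were made with an Illumina TruSeq kit from total RNA. Each line has 2 libraries, called biological replicates in the labels, so the p-values below measure the spread between these libraries. Only 1 knock-in line was sampled, and what the tag does and what arose when the line was derived cannot be told apart.

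The knock-in libraries held 25266051 and 18946731 counts in genes, and the wild-type libraries 26553998 and 21791128. Ep300 itself had 180.8 and 210.4 CPM (counts per 1000000 in the library, scaled by the TMM method) in knock-in cells, against 209.5 and 210.0 CPM in wild-type cells (log2 fold change -0.10, SE 0.15, edgeR adjusted p = 0.804). The summed level of 10 embryonic stem cell markers was 14230 and 13840 in knock-in cells and 14040 and 13240 in wild-type cells, as a level per kilobase of exon. The same sum for 7 fibroblast and feeder markers was 18.3 and 20.7 in knock-in cells and 31.1 and 32.5 in wild-type cells, with Lum at 0 counts in all libraries. Thy1 had 298 and 240 counts in knock-in cells and 454 and 444 in wild-type cells. Pdgfrb had 199 and 170 counts in knock-in cells and 456 and 332 in wild-type cells. The 4 of these markers that were tested had log2 fold changes of -1.09 to -0.55. With all libraries 0 of them had an edgeR adjusted p under 0.05 (0.0658% of all genes did). Their median log2 fold change was -0.91 with all libraries, -0.86 without wild type 2 and -0.96 without wild type 1. The lower level in knock-in cells was thus seen with either wild-type library. For Pdgfrb the values were -0.88, -0.96 and -0.81 in the same order. Lists of primitive endoderm, mesoderm, neuroectoderm and trophoblast markers each summed to between 2.34 and 17.0 in a library. One library stood apart. Wild type 2 differed from wild type 1 along the GC content of transcripts (Spearman rho 0.624 across 15181 genes), against -0.041 for knock-in 2 over knock-in 1, and the counts and the genes at the ends of the order are therefore also given without wild type 2. The chi-square per degree of freedom between replicates was 6.15 for the knock-in libraries and 48.8 for the wild-type libraries, so no library was a copy of another.

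The promoters of 69 of the 78 genes were in the RefSeq table used here (GRCm38.p6), as 75 windows of 300 bases, from 250 before to 50 after a transcription start. Nuclear genes for mitochondrial proteins are known as targets of the factors NRF1, GABP (an ETS factor) and YY1, so these letters were searched on both strands. The NRF1 motif (GCGC, 2 bases of any kind, then GCGC) was found in 18.7% of the windows, against 12.2% of the windows of all genes tested and 6.23% of all windows in the table. The ETS motif CCGGAAG was found in 34.7%, against 16.4% and 8.86%. The YY1 motif AANATGGC was found in 28% of the windows, against 7.83% and 6.05%. At least 1 of these 3 motifs stood in 48 of the 75 windows (64%), against 31.4% of the windows of tested genes and 18.7% of all windows. The TATA motif TATAAA was found in 6.67%, against 7.1% and 13.6%, and the GC box GGGCGG in 52%, against 61.5% and 35.7%. A match describes these letters and is not evidence of binding.

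Mrpl32, Mrps24 and Mrps11 are shown because they lie at opposite ends of the knock-in differences described below. Each window runs 5′ to 3′ on the gene's own strand, and capitals mark the NRF1, ETS and YY1 matches. The Mrpl32 window (chr13:14612988-14613287, minus strand) holds a YY1 match at bases 9 to 16 and an NRF1 match at bases 164 to 173. The Mrps24 window (chr11:5707652-5707951, minus strand) has a YY1 match at bases 287 to 294, downstream of the start. In the Mrps11 window (chr7:78782881-78783180, plus strand) a YY1 match stands at bases 144 to 151.
Mrpl32: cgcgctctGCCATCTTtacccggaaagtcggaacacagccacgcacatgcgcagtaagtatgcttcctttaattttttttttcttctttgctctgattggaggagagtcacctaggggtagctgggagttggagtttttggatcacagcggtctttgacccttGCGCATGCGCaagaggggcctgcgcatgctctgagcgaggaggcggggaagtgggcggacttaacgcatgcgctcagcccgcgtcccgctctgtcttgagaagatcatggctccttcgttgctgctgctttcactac
Mrps24: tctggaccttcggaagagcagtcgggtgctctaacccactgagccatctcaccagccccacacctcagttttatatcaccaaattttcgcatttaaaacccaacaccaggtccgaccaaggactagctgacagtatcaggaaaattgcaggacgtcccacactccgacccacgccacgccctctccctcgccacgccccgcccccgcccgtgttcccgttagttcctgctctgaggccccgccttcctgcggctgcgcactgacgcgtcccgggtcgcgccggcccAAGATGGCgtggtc
Mrps11: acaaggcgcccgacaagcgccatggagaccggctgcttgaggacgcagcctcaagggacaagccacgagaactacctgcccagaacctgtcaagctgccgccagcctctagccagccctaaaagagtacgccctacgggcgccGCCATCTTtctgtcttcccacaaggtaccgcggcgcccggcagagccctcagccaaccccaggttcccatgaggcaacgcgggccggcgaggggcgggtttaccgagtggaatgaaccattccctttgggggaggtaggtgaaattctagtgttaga

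The Mrps11 window is shared with a large-subunit gene. Mrps11 and Mrpl46 start 42 bases apart and are transcribed away from each other, their windows overlap by 141 bases, and their annotated exons share 173 bases. Overlap of this kind was common, since 33 of the 78 genes (42.3%; 22 large and 11 small) share exon bases with another gene. The strand columns of the tables split evenly (50.2% to 50.5% of the stranded counts in the reverse column), so reads from opposite strands cannot be told apart, and reads over such stretches were set aside as ambiguous (5.96% to 6.38% of reads in a library). Mrpl53 had 0 counts in all 4 libraries. It shares 695 of its 790 exon bases with Gm42688 on the same strand, which had 3 and 4 counts in knock-in cells and 4 and 0 in wild-type cells, so the 0 does not show that Mrpl53 is silent. The other 77 genes, 48 large and 29 small, passed the low-count filter and were tested. All but 3 of them had at least 10 CPM on average. The 5 Mrp pseudogene identifiers had 0 to 5 counts each per library.

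Mitochondrial ribosomal protein genes took 0.439% and 0.412% of the counts in genes in knock-in cells, and 0.412% and 0.433% in wild-type cells. The groups overlapped. Large-subunit genes held 1.97 and 1.98 times the summed counts of small-subunit genes in knock-in cells, against 1.94 and 1.91 times in wild-type cells. These sums follow the number and length of the genes as well as their level. Levels between genes are therefore compared per length, as counts per kilobase of exon scaled to a total of 1000000 in each library.

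On that scale the median over the 49 large-subunit genes, Mrpl53 included at 0, was 77.35 and 77.01 in knock-in cells and 72.8 and 75.3 in wild-type cells. The median level over the 29 small-subunit genes was 57.2 and 50.6 in knock-in cells and 50.6 and 59.6 in wild-type cells. The small-subunit median was thus 0.739 and 0.657 of the large-subunit median in knock-in cells, and 0.695 and 0.791 in wild-type cells. The small-subunit median was the lower in every library, but this order depended on how length was measured. With the mean length of the protein-coding transcripts in place of all exon bases, the small-to-large ratio was 1.01 ± 0.098 in knock-in cells and 0.979 ± 0.046 in wild-type cells (SD, n = 2 each), so no difference of level between the subunits is shown. The length scales ranked the 77 genes alike only in part (Spearman rho 0.751 across genes, which share libraries and counts).

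Within each subunit the levels spread widely. Among tested large-subunit genes the mean level ranged from 2.23 to 339, and among small-subunit genes from 8.66 to 246. Mrpl2, counterpart of a bacterial protein close to the peptidyl transferase centre, was highest in the large subunit, at 334.3 and 345.6 in knock-in cells and 297.6 and 379.6 in wild-type cells. Mrpl34 had levels of 315.4 and 263.5 in knock-in cells, against 261.9 and 354.4 in wild-type cells. In both genes wild type 2 was the highest library and wild type 1 the lowest, with the knock-in libraries between. Mrpl28 followed at 192.6 and 202.0 in knock-in and 216.1 and 244.6 in wild-type cells, and Mrpl43, a protein gained in mitochondria, at 179.6 and 161.0 in knock-in and 181.4 and 232.1 in wild-type cells. The ranges of Mrpl2 and Mrpl34 over the 4 libraries overlapped, as did those of Mrpl28 and Mrpl43, although within each library the order of each pair was the same.

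In the small subunit, Mrps24 was highest, at 233.0 and 200.1 in knock-in cells and 231.6 and 317.8 in wild-type cells. Its bacterial counterpart lines the channel by which mRNA enters the ribosome. Mrps12, counterpart of a bacterial protein of the decoding centre, had levels of 214.1 and 212.7 in knock-in cells and 190.5 and 223.0 in wild-type cells. Mrps28 had levels of 158.1 and 138.5 in knock-in cells, against 141.5 and 159.0 in wild-type cells. Mrps21 had levels of 121.6 and 117.1 in knock-in cells, against 129.5 and 128.4 in wild-type cells. Mrps24 and Mrps12 overlapped in their library values, whereas every value of Mrps28 was above every value of Mrps21, an order that turned round by transcript length (mean level 77.7 for Mrps28 and 126.0 for Mrps21).

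The lowest tested genes were Mrpl33 and Mrpl48 in the large subunit and Mrps18c and Mrps6 in the small. Mrpl33 had levels of 1.72 and 2.33 in knock-in cells and 2.63 and 2.23 in wild-type cells per kilobase of exon. Its annotated exons cover 7326 bases, but its protein-coding transcripts average 478 bases, and per transcript length its mean level was 17.8. Mrpl48 had levels of 9.80 and 10.4 in knock-in cells and 9.91 and 9.29 in wild-type cells. By transcript length Mrpl48 was at 27.9, and Mrpl32 (14.7) and Mrpl19 (15.0) were the lowest of the tested large-subunit genes. Mrpl33 and Mrpl48 were thus below the large-subunit median on both length scales (69.5 by transcript length), but lowest only on the exon scale. Mrps18c had levels of 9.28 and 10.3 in knock-in cells and 10.6 and 4.52 in wild-type cells, and Mrps6 of 11.1 and 8.72 in knock-in cells and 9.50 and 9.52 in wild-type cells. These small-subunit genes were lowest on both length scales. Mrpl33, Mrpl48, Mrps18c and Mrps6 share 261, 708, 250 and 305 exon bases with other genes. Part of their reads may therefore be among those set aside as ambiguous, and their levels may be too low. By transcript length the highest genes were Mrpl20, Mrpl52, Mrpl42 and Mrpl4 in the large subunit and Mrps24, Mrps12, Mrps21 and Mrps15 in the small, so that Mrps24 and Mrps12 led on both.

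**Figure D1:**
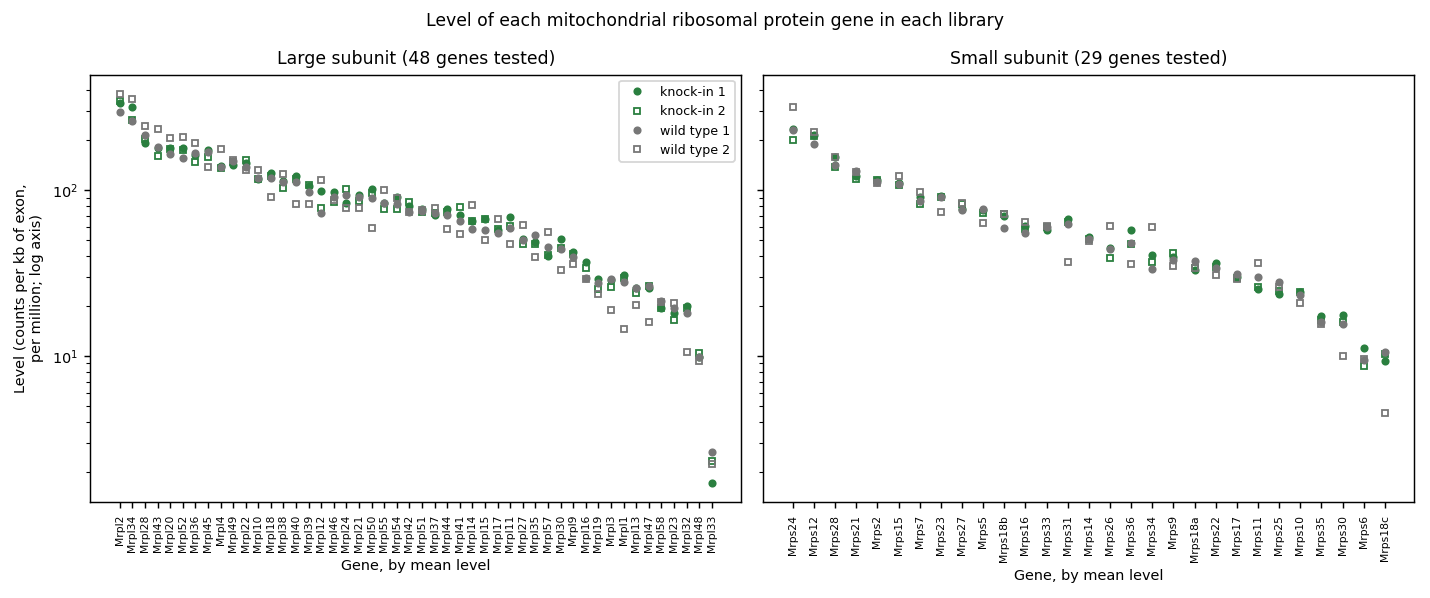
Level of each tested gene (counts per kilobase of exon, scaled to the same total in each library, log axis) in each library, with genes ordered by mean level and the subunits in separate panels. Green points are knock-in and grey points wild-type libraries, and wild type 2 (open grey squares) departs most from the others, as for Mrpl1 and Mrps18c.

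None of the 77 genes passed the threshold between knock-in and wild-type cells. The test was edgeR's quasi-likelihood test with Benjamini-Hochberg adjustment over all 15191 genes and a threshold of 0.05, and it called 0.0658% of all genes. DESeq2 also called 0 of the 77. At an unadjusted p under 0.05, 2 of the 77 were higher in knock-in cells and 0 lower, against 3.54% and 7.4% of all genes. These were Mrpl15 and Mrpl50, and Mrpl15 is named for this count after its values were seen. In bulk RNA, more RNA per cell and more cells that express a gene cannot be told apart.

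The differences were small and leaned upwards. The median log2 fold change (knock-in over wild type) was 0.093 over the 77 genes and 0.00098 over all genes tested. It was above 0 in 48 of the 77 genes (62.3%), against 50.1% of all genes. Both knock-in libraries were above both wild-type libraries in 27 genes (35.1%; 17 large and 10 small), against 23.4% of all genes. Both were below in 6 genes (7.79%), against 23.9% of all genes. Those 6 were Mrpl28, Mrpl57, Mrpl58, Mrps11, Mrps18a and Mrps25. The 27 genes had log2 fold changes of 0.091 to 0.57.

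This lean was uneven between libraries. The median log2 deviation of the 77 genes from the mean of the 4 libraries was 0.10 in knock-in 1 and -0.0093 in knock-in 2, and -0.076 in wild type 1 and 0.0025 in wild type 2. The same median over all genes tested was 0.0073 and 0.016 in knock-in cells and 0.037 and 0.0016 in wild-type cells. Knock-in 1 was the highest library for 37 of the 77 genes and knock-in 2 for 5, against 3 in wild type 1 and 32 in wild type 2. Wild type 2 was also the lowest library for 29 genes, close to the 28 of wild type 1, while knock-in 1 was lowest for 1 gene and knock-in 2 for 19. The same counts were not made over all genes tested, so they cannot be read as particular to the 77 genes. Without knock-in 1 the median log2 fold change was -0.0015 in the large and 0.016 in the small subunit, so the lean was lost without that library. Without wild type 1 the median was 0.022 over the 77 genes, 0.099 in the large and -0.0097 in the small subunit. With the correction for GC content described below and without knock-in 1 the medians were 0.046 in the large and 0.023 in the small subunit. The size of the lean thus depended on the libraries used and on the correction.

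The 95% intervals show what size of change remained possible. They lay within a 2-fold change either way for 74 of the 77 genes and within 1.5-fold for 49. The exceptions to 2-fold were Mrpl1 (upper bound 1.14 on the log2 scale), Mrpl32 (1.03) and Mrps18c (1.26). Without wild type 2 the intervals of all 77 genes lay within 2-fold and those of 69 within 1.5-fold. That fit takes its spread from the knock-in libraries alone, so its intervals leave out the spread between the wild-type libraries.

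**Figure D2:**
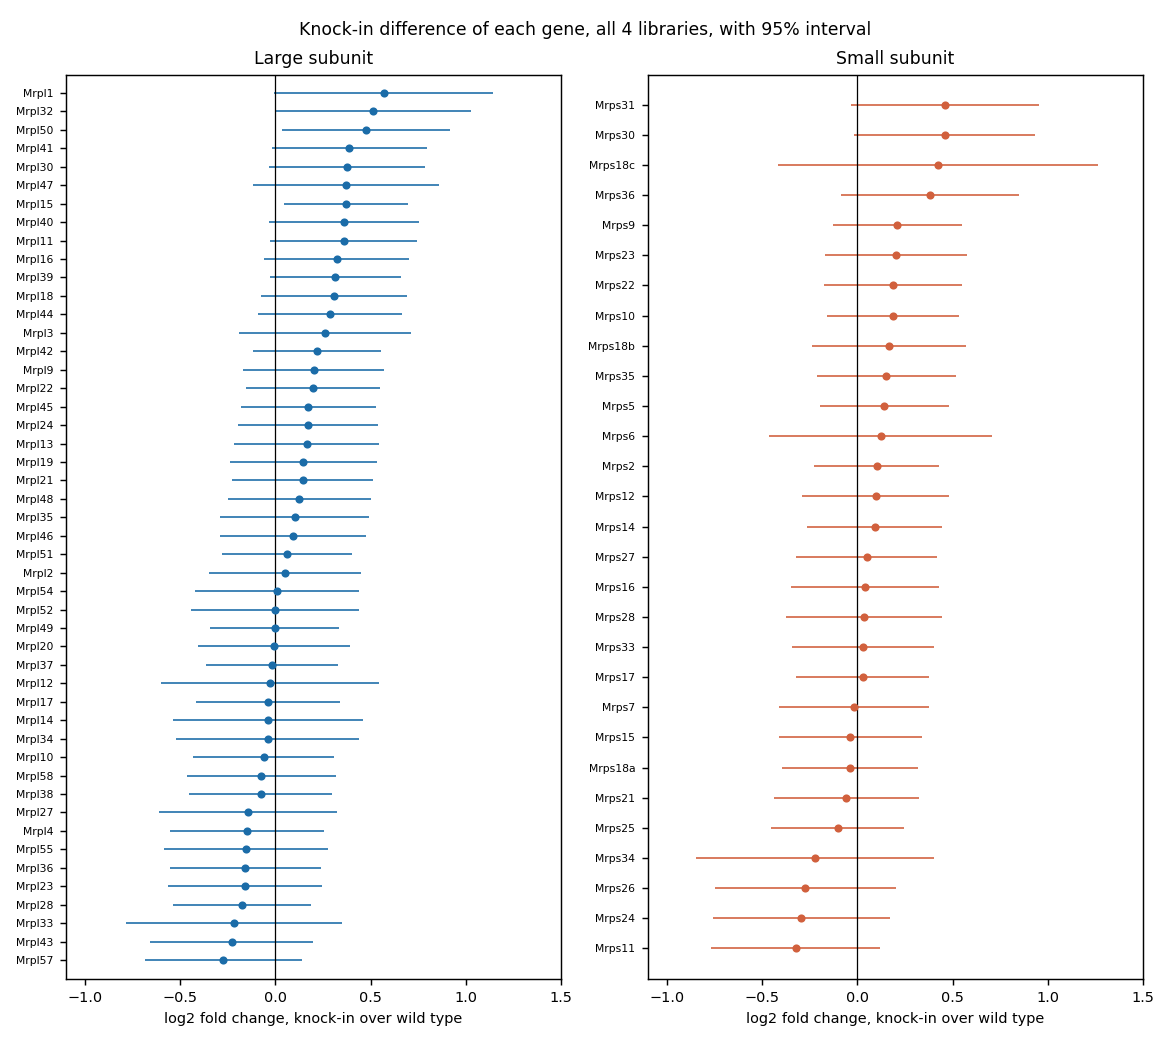
Log2 fold change of each tested gene, knock-in over wild type, with its 95% interval from the fit to all 4 libraries, large subunit on the left and small subunit on the right. Points run from -0.27 to 0.57 in the large and from -0.32 to 0.46 in the small subunit, and the intervals of Mrpl15 and Mrpl50 alone lie wholly on one side of 0.

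The largest positive value in the large subunit was that of Mrpl1, counterpart of a bacterial protein that forms a mobile stalk of the ribosome (chromosome 5, 96209493 to 96266727). It had 41.6 and 38.1 CPM in knock-in cells, against 34.5 and 19.1 CPM in wild-type cells (log2 fold change 0.57, SE 0.26, edgeR adjusted p = 0.455). Both knock-in libraries were above both wild-type libraries, but the gap between the wild-type libraries was wider than that between the group means. Mrpl32, which is cut to its mature form by a mitochondrial protease before it joins the ribosome, had 31.5 and 28.9 CPM in knock-in cells and 25.9 and 16.3 CPM in wild-type cells (log2 fold change 0.51, SE 0.23, edgeR adjusted p = 0.455). Mrpl50, gained in mitochondria, had 67.9 and 61.2 CPM in knock-in cells and 54.2 and 38.5 CPM in wild-type cells (log2 fold change 0.48, SE 0.19, edgeR adjusted p = 0.437). In these genes too, wild type 2 was the lowest library and the groups did not overlap. Omitting that library gave log2 fold changes of 0.20 for Mrpl1, 0.21 for Mrpl32 and 0.24 for Mrpl50. Mrpl41, another protein gained in mitochondria, had levels per kilobase of exon of 71.1 and 79.2 in knock-in cells and 64.9 and 54.3 in wild-type cells (log2 fold change 0.39, SE 0.18, edgeR adjusted p = 0.462). Mrpl15, the gene with the smallest unadjusted p, had 180.5 and 170.1 CPM in knock-in cells and 140.3 and 130.7 CPM in wild-type cells (log2 fold change 0.37, SE 0.14, unadjusted p = 0.0296, edgeR adjusted p = 0.433). In Mrpl41 and Mrpl15 the groups did not overlap either, and without wild type 2 their log2 fold changes were 0.30 and 0.31.

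The most negative values in the large subunit belonged to Mrpl57, Mrpl43, Mrpl33 and Mrpl28. Mrpl57 had 37.4 and 36.1 CPM in knock-in cells and 38.4 and 50.6 CPM in wild-type cells (log2 fold change -0.27, SE 0.18, edgeR adjusted p = 0.569). Mrpl43 had 86.5 and 73.6 CPM in knock-in cells and 79.1 and 108.7 CPM in wild-type cells (log2 fold change -0.23, SE 0.19, edgeR adjusted p = 0.639). Mrpl28 had 84.2 and 83.8 CPM in knock-in cells and 85.6 and 104.0 CPM in wild-type cells (log2 fold change -0.17, SE 0.16, edgeR adjusted p = 0.679). In these 3 genes wild type 2 was the highest library, and wild type 1 was within or next to the knock-in values. With wild type 2 left out, Mrpl57 was at -0.075, Mrpl43 at 0.0044 and Mrpl28 at -0.041 on the log2 scale. Mrpl43 shares 507 exon bases with Twnk, the gene of the mitochondrial DNA helicase, on the opposite strand. Mrpl33 had 3.98 and 5.14 CPM in knock-in cells and 5.52 and 5.04 CPM in wild-type cells, and its groups overlapped (log2 fold change -0.22, SE 0.25, edgeR adjusted p = 0.745; -0.30 without wild type 2).

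In the small subunit, the largest positive values were those of Mrps31, Mrps30, Mrps18c and Mrps36. Mrps31, gained in mitochondria, had 70.2 and 63.4 CPM in knock-in cells and 59.3 and 37.6 CPM in wild-type cells (log2 fold change 0.46, SE 0.22, edgeR adjusted p = 0.468). Mrps30 had 37.2 and 32.3 CPM in knock-in cells and 29.9 and 20.6 CPM in wild-type cells (log2 fold change 0.46, SE 0.21, edgeR adjusted p = 0.461). Mrps36 had 23.1 and 18.0 CPM in knock-in cells and 17.4 and 14.1 CPM in wild-type cells (log2 fold change 0.38, SE 0.21, edgeR adjusted p = 0.501). Wild type 2 was the lowest library of each, and the groups did not overlap. The log2 fold changes of Mrps31, Mrps30 and Mrps36 were 0.16, 0.20 and 0.23 when it was left out. The Mrps30 protein sits in the large subunit of the assembled ribosome despite its name, and the Mrps36 protein was later assigned to the alpha-ketoglutarate dehydrogenase complex.

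The most negative values in the small subunit belonged to Mrps11, Mrps24, Mrps26 and Mrps34. Mrps11 had 17.3 and 16.9 CPM in knock-in cells and 18.6 and 24.4 CPM in wild-type cells (log2 fold change -0.32, SE 0.20, edgeR adjusted p = 0.529). Mrps24 had 108.2 and 88.2 CPM in knock-in cells and 97.4 and 143.6 CPM in wild-type cells (log2 fold change -0.29, SE 0.21, edgeR adjusted p = 0.581). Mrps26, gained in mitochondria, had 61.7 and 51.2 CPM in knock-in cells and 55.1 and 81.5 CPM in wild-type cells (log2 fold change -0.27, SE 0.21, edgeR adjusted p = 0.617). Wild type 2 was the highest library of all 3, and only in Mrps11 were both knock-in libraries below both wild-type libraries. With that library omitted, Mrps11 had a log2 fold change of -0.13, Mrps24 of -0.00049 and Mrps26 of 0.024. Mrps34, which the small subunit needs for its stability in mice, had 26.4 and 22.9 CPM in knock-in cells and 19.7 and 37.9 CPM in wild-type cells (log2 fold change -0.22, SE 0.28, edgeR adjusted p = 0.767). Its wild-type libraries enclosed the knock-in libraries. Mrpl46, the divergent neighbour of Mrps11, had 43.9 and 36.2 CPM in knock-in cells and 37.0 and 38.1 CPM in wild-type cells (log2 fold change 0.093, SE 0.17, edgeR adjusted p = 0.848). With all libraries the values of Mrps11 and Mrpl46 had opposite signs, but neither gene passed the threshold. Without knock-in 1 both were negative (-0.36 and -0.073), and without any other single library the signs differed.

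Mrps18a, Mrps18b and Mrps18c encode related copies of 1 bacterial small-subunit protein. Mrps18a, whose protein sits in the large subunit, had 38.3 and 37.7 CPM in knock-in cells and 39.3 and 38.8 CPM in wild-type cells (log2 fold change -0.039, SE 0.16, edgeR adjusted p = 0.937). Mrps18b had 46.4 and 45.1 CPM in knock-in cells and 35.6 and 46.1 CPM in wild-type cells (log2 fold change 0.16, SE 0.18, edgeR adjusted p = 0.730). Mrps18c had 3.16 and 3.32 CPM in knock-in cells and 3.27 and 1.498 CPM in wild-type cells (log2 fold change 0.42, SE 0.37, edgeR adjusted p = 0.665). The groups overlapped for Mrps18b and Mrps18c, and Mrps18c was at -0.029 on the log2 scale when wild type 2 was left out. By transcript length Mrps18a and Mrps18b were at a mean level of 88.1 and 104.0, and Mrps18c was far below them at 7.59. Per kilobase of exon Mrps18a (34.5) was well below Mrps18b (68.2), and Mrps18c was again the lowest (8.66). How close Mrps18a and Mrps18b were thus depended on how length was measured. Mrps18c shares 250 of its 1076 exon bases with another gene, and Mrps18b 638 of its 2089. Part of their reads may therefore be among those set aside as ambiguous, and both levels may be too low.

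The order of the genes by knock-in difference followed the GC content of their transcripts. Across the 77 genes the Spearman correlation of transcript GC content with the log2 fold change was -0.656, and with the log2 ratio of wild type 2 over wild type 1 it was 0.715. It was -0.229 for knock-in 2 over knock-in 1. Across all genes these 3 values were -0.481, 0.624 and -0.041. The points share 4 libraries, so these are descriptions of the libraries. Without wild type 2 the correlation of GC content with the log2 fold change was -0.054 over the 77 genes.

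The GC-poor and GC-rich ends show the same pattern in counts of genes. The 25 genes of lowest GC content (40.6% to 48.8%) had a median log2 fold change of 0.22, with 24 of 25 above 0, and wild type 2 was below wild type 1 in 19 of them. The 25 genes of highest GC content (53.9% to 60.8%) had a median of -0.040, with 6 of 25 above 0, and wild type 2 was below wild type 1 in 3 of them. The low-GC genes include Mrpl32, Mrpl1, Mrpl50, Mrps30 and Mrps31, and the high-GC genes include Mrps34, Mrps24, Mrpl43 and Mrps26, which stand at the ends of the order above. Other genes at those ends did not follow the pattern. Mrpl41, with a GC content of 54.6%, had a log2 fold change of 0.39, and Mrpl33, with 46.7%, one of -0.22. Mrpl57, the most negative large-subunit gene, had a GC content of 49.7%, between the GC-poor and GC-rich groups. Without wild type 2 the medians were 0.16 and 0.087, nearer to each other.

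**Figure D3:**
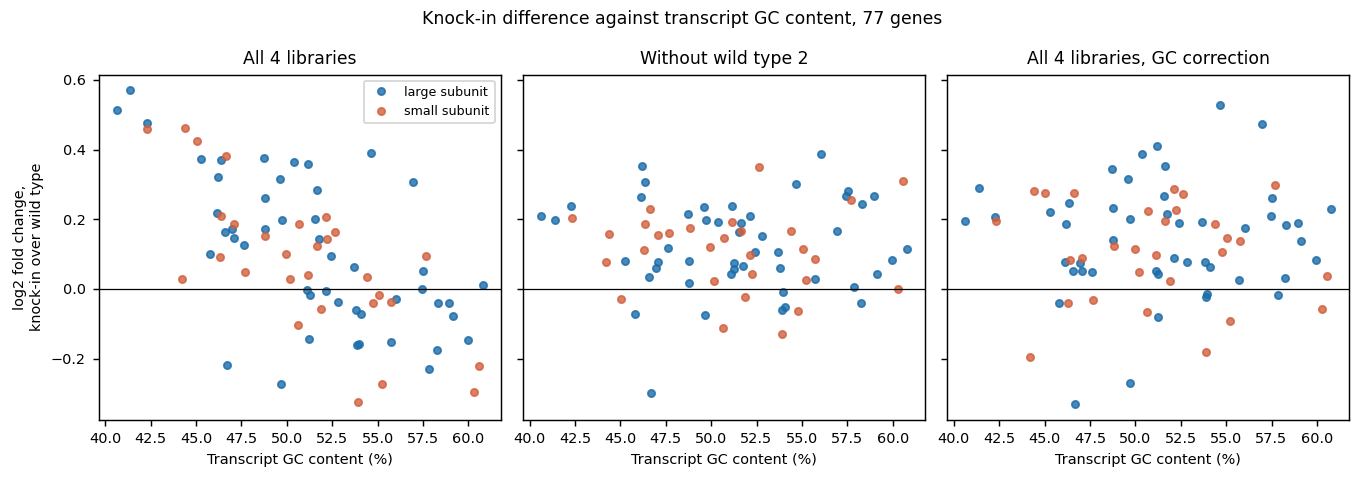
Log2 fold change, knock-in over wild type, of the 77 tested genes against transcript GC content in percent, with large-subunit genes in blue and small-subunit genes in orange. The slope seen with all 4 libraries (Spearman rho -0.656) is near 0 without wild type 2 (-0.054). After a correction for GC content it is -0.047, which follows from the method, since the correction removes each library's trend along GC content.

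Leaving out wild type 1 moved the calls. Without wild type 1, so that wild type 2 alone stood for the wild-type line, 20 of the 77 genes were higher in knock-in cells (15 large and 5 small; 19% of all genes were called higher) and 10 were lower (6 large and 4 small; 13.1% of all genes). Of the genes called higher, 13 lay in the GC-poor group and 2 in the GC-rich group, and of those called lower, 0 and 9. The same split was not counted over all genes tested, so it cannot be read as particular to the 77 genes. Without wild type 1 the Spearman correlation of GC content with the log2 fold change was -0.709 over the 77 genes and -0.618 over all genes. Mrpl1 then had a log2 fold change of 1.06 and Mrps34 of -0.62. Without wild type 2, 0 of the 77 genes were called in either direction, against 4.39% of all genes. Mrpl1 then had a log2 fold change of 0.20 (edgeR adjusted p = 0.470) and Mrps34 of 0.31 (edgeR adjusted p = 0.261). Without knock-in 1 or knock-in 2, 0 of the 77 were called, against 0.107% and 0.099% of all genes. In each of these fits the lone library is assumed to vary like those of the other line.

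Transcripts at the other extremes of the wild-type ratio show it gene by gene. Mrpl12, whose bacterial counterpart forms the flexible stalk that recruits translation factors, had 48.2 and 36.0 CPM in knock-in cells and 32.0 and 54.1 CPM in wild-type cells (log2 fold change -0.028, SE 0.25, edgeR adjusted p = 0.975). With Mrps34 it had the highest ratio of wild type 2 over wild type 1, at 0.76 and 0.94 on the log2 scale. The lowest ratios were those of Mrps18c and Mrpl1, at -1.13 and -0.85. Knock-in 1 and knock-in 2 differed by a median of 0.13 on the log2 scale over the 77 genes, and wild type 1 and wild type 2 by 0.26.

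**Figure D4:**
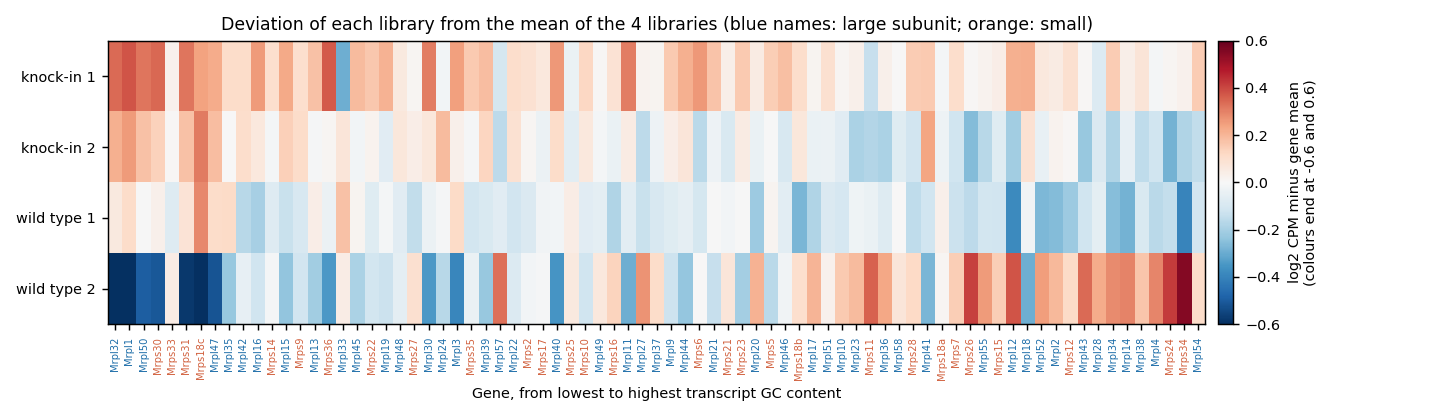
Deviation of each library from the gene's mean over the 4 libraries (log2 CPM, colour scale ending at -0.6 and 0.6) for the 77 tested genes, from lowest to highest transcript GC content. Wild type 2 turns from blue at the left (low GC content, as Mrpl32 and Mrpl1) to red at the right (as Mrps24 and Mrps34), while knock-in 1 is highest for 37 genes.

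With a correction for GC content (a spline of each library's deviation on transcript GC content, used as an offset), again 0 of the 77 genes were called, against 0.764% of all genes. The median log2 fold change was then 0.14 over the 77 genes and 0.026 over all genes. It was above 0 in 63 of the 77 genes (81.8%; 54% of all genes). With no correction it was above 0 in 64 of the 77 without wild type 2 (83.1%; 48.2% of all genes) and in 40 without wild type 1 (51.9%; 50.5% of all genes). On GC-corrected CPM, both knock-in libraries were above both wild-type libraries in 35 genes (45.5%; 26.5% of all genes) and below in 4 (5.19%; 21.5% of all genes). With the correction and without wild type 2, 1 gene was called, Mrpl12, higher in knock-in cells at an edgeR adjusted p of 0.0348, against 0.859% of all genes called higher. With the correction and without wild type 1, 14 were called higher and 2 lower, against 8.9% and 4.03% of all genes.

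Between large and small subunit, the knock-in difference was close with all libraries and depended on the processing. The median log2 fold change was 0.097 over the 48 large-subunit genes (middle 50% from -0.045 to 0.29) and 0.091 over the 29 small-subunit genes (from -0.037 to 0.19). The difference between these medians was 0.0057, smaller than the SD of 0.027 that the replicates give. It was larger than that SD with the GC correction (0.066) and without wild type 1 (0.11), and within it without wild type 2 (-0.012). By library, the median deviation of large-subunit genes was 0.11 and -0.013 in knock-in cells and -0.072 and -0.036 in wild-type cells, and that of small-subunit genes 0.099 and -0.0092 in knock-in cells and -0.077 and 0.0094 in wild-type cells. The medians of the subunits thus had the same sign in every library but wild type 2. With the GC correction their signs were alike in wild type 2 (large -0.056, small -0.023) and opposite in knock-in 2 (0.016 and -0.020). The exception therefore depended on the processing. The median log2 fold changes with the GC correction were 0.18 for the large and 0.11 for the small subunit, and without wild type 2 they were 0.11 and 0.12. No test was made of these differences, since members are not replicates.

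Proteins of bacterial descent and those gained in mitochondria are given side by side, again with no test. In the large subunit the median log2 fold change was 0.12 over 30 genes with a bacterial counterpart and 0.078 over 18 gained in mitochondria. In the small subunit it was 0.066 over 16 and 0.10 over 10 genes. Without wild type 1 the large-subunit medians were 0.20 for bacterial counterparts and 0.042 for proteins gained in mitochondria. With the GC correction the small-subunit order turned round, at 0.13 for bacterial counterparts and 0.063 for proteins gained in mitochondria. The 3 genes left out of these classes were Mrps18a, Mrps18b and Mrps36. Moving Mrps18a and Mrps30 to the large subunit and leaving out Mrps36 kept both subunit medians within the spread between replicates, as did leaving out the genes whose exons overlap another gene. The difference of large minus small was 0.0272 after the move, just above its SD of 0.0265 between replicates. It was 0.0024 without the genes with exon overlap.

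Genes that build, supply or use the mitochondrial ribosome were looked at in lists beside the 77, and with all libraries none of their members passed the threshold (0.0658% of all genes did). The 5 mitochondrial ribosomal proteins under other symbols had a median log2 fold change of -0.0090. The highest of them in level, Aurkaip1, had 104.0 and 88.9 CPM in knock-in cells and 87.0 and 112.7 CPM in wild-type cells (log2 fold change -0.048, SE 0.18). The medians were 0.034 over 25 assembly factors, 0.14 over 13 translation factors and 0.013 over 17 mitochondrial aminoacyl-tRNA synthetases, while Mtrfr was not analysed here. Rbfa, which helps to mature the small subunit, had 86.9 and 72.0 CPM in knock-in cells and 71.9 and 85.7 CPM in wild-type cells (log2 fold change 0.013, SE 0.17). Tufm, the elongation factor that brings aminoacyl-tRNA to the ribosome, had levels per kilobase of exon of 371.5 and 352.8 in knock-in cells and 365.4 and 472.5 in wild-type cells (log2 fold change -0.16, SE 0.18). The alanyl-tRNA synthetase gene Aars2 had 82.2 and 78.1 CPM in knock-in cells and 73.2 and 107.6 CPM in wild-type cells (log2 fold change -0.17, SE 0.20). In Aurkaip1, Tufm and Aars2 wild type 2 was again the highest library, and in all 4 genes the groups overlapped.

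Upstream of these genes, the median was 0.19 over 11 genes for mitochondrial transcription and RNA processing and 0.093 over 8 tested regulators of nuclear genes for mitochondria. Hsd17b10, a subunit of the mitochondrial RNase P, had 61.2 and 59.1 CPM in knock-in cells and 54.5 and 56.3 CPM in wild-type cells (log2 fold change 0.12, SE 0.15). Pprc1, a coactivator of mitochondrial genes, had 317.6 and 302.6 CPM in knock-in cells and 268.1 and 316.0 CPM in wild-type cells (log2 fold change 0.087, SE 0.15). Ppargc1a, its better-known relative, had 0 counts in all 4 libraries. Without wild type 2, Myc of this list passed as higher (log2 fold change 0.64, edgeR adjusted p = 1.276e-05) and none as lower, against 0.711% of all genes higher and 3.68% lower. Without wild type 1 the log2 fold change of Myc was 0.15. With all 4 libraries it was 0.38 and did not pass (SE 0.19, edgeR adjusted p = 0.479). Myc is named here after its values were seen.

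As sums, the RNAs that the mitochondrial ribosome contains and translates were lowest in wild type 2. The summed level of 13 mitochondrially encoded mRNAs was 25170 and 26640 in knock-in cells, against 31240 and 13710 in wild-type cells. Some of these genes hardly entered the sum. In any library mt-Nd3, mt-Nd4l and mt-Atp8 had at most 7 counts, and mt-Co2, mt-Co3 and mt-Atp6 at most 195. Why their counts were low was not tested. The summed level of the 2 mitochondrial rRNAs was 828.8 and 774.8 in knock-in cells, against 1086 and 279.9 in wild-type cells. For mt-Co1, a core subunit of cytochrome c oxidase, the level per kilobase was 10810 and 11790 in knock-in cells and 13580 and 6346 in wild-type cells (log2 fold change 0.25, SE 0.27, edgeR adjusted p = 0.725). For mt-Rnr1, the small-subunit rRNA, it was 469.7 and 438.3 in knock-in cells and 621.3 and 136.5 in wild-type cells (log2 fold change 0.35, SE 0.49, edgeR adjusted p = 0.795). The wild-type libraries enclosed the knock-in libraries in both. Without wild type 2 both rRNAs passed as lower in knock-in cells (3.68% of all genes did) and 0 of the 10 tested mRNAs were called. Without wild type 1 both rRNAs and 9 of the 10 mRNAs passed as higher in knock-in cells (19% of all genes did), with median log2 fold changes of 1.51 and 0.86. The direction therefore depended on which wild-type library was used. The part of these RNAs in the values of the 77 genes was not tested.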

How the data were processed

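The series holds RNA sequencing libraries, 2 of knock-in and 2 of wild-type cells. The deposited values are raw read counts per gene, made by the authors with STAR 2.5.3a after Trim Galore on mouse GRCm38 (mm10), per the submitters' processing notes. The annotation release behind the counts is not given in the sources used here. The unstranded column was used, since no label names a stranded kit. The 4 summary entries that name no gene, 15.8% to 18% of the reads in a library, entered neither library sizes nor tests. Of 54838 identifiers, 54809 matched GENCODE M21, which gave symbols, coordinates, exon lengths and GC content.

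Counts were tested in R 4.3.3 with edgeR 4.0.16 (TMM scaling, filterByExpr with a minimum count of 10, quasi-likelihood F test on genotype, Benjamini-Hochberg adjustment over 15191 genes, threshold 0.05). The SE was obtained from the size of the log2 fold change and the square root of its F statistic. Levels per length are counts per kilobase of exon, scaled to a total of 1000000 in each library. The alternatives were DESeq2 1.42.0 (its test, and its size factors in edgeR), no low-count filter, a block for the replicate number, omission of each library in turn, and a GC correction (natural spline with 5 degrees of freedom on transcript GC content). For levels they were transcript length, placing genes by their place in the ribosome, and leaving out genes with exon overlap. The procedure was checked on simulated counts. With no GC trend, 2-fold differences were recovered at a rate of 100%. With a GC trend placed in wild type 2, the uncorrected fit recovered 56% of them, and the GC-corrected fit 100%. False calls were then 1 in 157 and 10 in 210. Differences of 4-fold were recovered at 100% in all these runs. Under such a trend, a gene not called by the uncorrected fit may still differ by 2-fold. Whether these rates hold for the deposited libraries was not tested.

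The members and gene lists were chosen with earlier results of these data known. Named genes were Ep300 and, in each subunit, the 4 highest and 2 lowest tested genes by level and the 4 largest log2 fold changes each way. The 3 Mrps18 genes, the 2 highest and 2 lowest ratios between the wild-type libraries, and the highest gene of each list were added.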

Additional observations from a re-analysis of the deposited data

How the results depend on the processing

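No member of the 77 genes was called with all 4 libraries under DESeq2 size factors, no low-count filter, the DESeq2 test, the replicate block, the GC correction, both together or a crossed pairing. Over all genes, the 1 higher and 9 lower calls became 63 and 291 with no filter, 6 and 75 with DESeq2, 22 and 94 with the GC correction, 46 and 151 with the replicate block, and 81 and 163 with the GC correction and the block. The deviations of replicates with the same number correlated at -0.127 across genes. With 2 libraries in each line this value cannot decide whether they share more than a number. With crossed pairing, added after the data were seen, 175 and 334 genes were called. The cause of these changes was not tested.

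The large-subunit median log2 fold change was 0.18 with the GC correction and 0.18 with the block as well, and large minus small was 0.066 and 0.065. Leaving out 1 library, with or without the GC correction, gave 1 to 2975 genes higher and 14 to 2040 lower, 0 to 20 members higher and 0 to 10 lower. The medians then ran from -0.0015 to 0.23 for the large subunit, from -0.0097 to 0.16 for the small, and from -0.017 to 0.11 for large minus small. The highest counts came without wild type 1.

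By transcript length the median level was 65.7 for the large and 66.0 for the small subunit in knock-in cells (ratio 1.008), and 68.6 and 67.1 in wild-type cells (ratio 0.979). By place in the ribosome it was 75.5 and 59.1 in knock-in cells (ratio 0.783). Without genes that share exon bases it was 81.2 and 59.1 in knock-in cells and 80.4 for the large subunit in wild-type cells.

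No named log2 fold change that turned sign had passed the threshold. With the GC correction the values were 0.18 for Mrpl34, 0.032 for Mrpl28, 0.023 for Mrps21, 0.038 for Mrps34, 0.11 for Mrps18a, 0.18 for Mrpl12, 0.16 for Aurkaip1, 0.026 for Tufm, 0.060 for Aars2 and -0.069 for mt-Co1. With the replicate block as well they were 0.18 for Mrpl34, 0.033 for Mrpl28, 0.021 for Mrps21, 0.063 for Mrps34, 0.11 for Mrps18a, 0.18 for Mrpl12, 0.15 for Aurkaip1, 0.028 for Tufm, 0.063 for Aars2 and -0.057 for mt-Co1. Mrpl12 was at 0.0046 with the replicate block alone and at 0.00049 with crossed pairing, and Rbfa at -0.0069 with no filter. Leaving out 1 library gave -0.16 to 0.31 for Mrpl2, -0.28 to 0.33 for Mrpl34, -0.31 to 0.059 for Mrpl28, -0.44 to 0.088 for Mrpl43, -0.017 to 0.12 for Mrpl48 and -0.35 to 0.42 for Mrpl12. For the small subunit it gave -0.54 to 0.072 for Mrps24, -0.059 to 0.34 for Mrps12, -0.13 to 0.32 for Mrps28, -0.14 to 0.091 for Mrps21, -0.071 to 1.11 for Mrps18c, -0.13 to 0.39 for Mrps6, -0.52 to 0.055 for Mrps26, -0.62 to 0.34 for Mrps34, -0.069 to 0.24 for Mrps18a and -0.0097 to 0.38 for Mrps18b. For the lists it gave -0.22 to 0.26 for Aurkaip1, -0.15 to 0.32 for Rbfa, -0.38 to 0.11 for Tufm, -0.42 to 0.15 for Aars2, -0.026 to 0.30 for Pprc1, -0.26 to 0.83 for mt-Co1 and -0.45 to 1.74 for mt-Rnr1.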
